A study of Zea mays with 12 samples.

Results

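Abundant gene models with little RNA on polysomes were examined in 2 inbred lines of maize, B73 and Mo17, as whole seedlings. A gene model was called abundant when its mean level was at least 20 FPKM (fragments per unit of gene length and of library size) in the 2 RNA-seq libraries of a line. It was called depleted when its mean level in the 2 polysome libraries of the same line was at most 25% of that RNA mean. In B73, 86 of 2815 abundant gene models met both conditions (3.06%), out of 43788 gene models in all. In Mo17, 96 of 4897 abundant gene models did (1.96%), out of 37843. The polysome and RNA values themselves chose these models, so their levels are given as a description with no test.

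Both lines were sampled at an age of 14 days, under a daily cycle of 16 h light (28 °C) and 8 h darkness (25 °C). Each line had 2 polysome profiling libraries, 2 RNA-seq libraries and 2 m6A-seq libraries, 12 samples in all, and no treatment or mutation is named in the labels. The labels give the molecule as polyA RNA for polysome profiling and RNA-seq and as total RNA for m6A-seq, and they do not say whether replicates came from separate plants. Values from whole seedlings cannot tell a lower level per cell from fewer cells that carry an RNA. The files do not pair gene model identifiers with gene names, so seedling marker genes were not looked up and no function is given for any model below. The 2 lines carry different identifiers and were described apart.

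Polysomes are messenger RNAs that carry several ribosomes at once, and the RNA recovered with them is enriched for messages in translation. Transfer RNAs bring amino acids to the ribosome and are among the shortest genes of a plant nucleus, often present in many near-identical copies and in local groups. N6-methyladenosine (m6A) is a methylated base of messenger RNA, in plants found mostly near the 3′ end. ENSRNA identifiers mark predicted non-coding RNA genes in Ensembl, and the B73 tables list them beside the gene models.

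In B73 the depleted models were mostly of tRNA size. A span of 60 to 100 bp was taken as tRNA size, and 64 of the 86 depleted models (74.4%) had one. Their spans ran from 71 to 87 bp, with 20 models of 74 bp, 13 of 73 bp, 10 of 87 bp and 8 of 72 bp as the most frequent lengths. Seen the other way, 64 of the 71 abundant models of tRNA size were depleted (90.1%), beside 3.06% of all abundant models. How FPKM corrects for the length of such short models is not stated, and its part in which of them reach 20 FPKM was not tested. Of the longer abundant models, 1 of 54 up to 300 bp, 5 of 449 over 300 and up to 1000 bp and 16 of 2241 over 1000 bp were depleted. The span was not part of the rule that chose the models. Whether these short models are transfer RNA genes is not stated in the files, and the name describes their size alone.

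Mo17 had almost no abundant models of this size. Its tables listed 329 gene models of 60 to 100 bp (0.869% of gene models), against 2249 in B73 (5.14%), and 214 of those in Mo17 and 1366 of those in B73 were listed at 0 in all 4 libraries. A single Mo17 model of this size was abundant, and it was depleted. The other 95 depleted models of Mo17 were longer: 3 had up to 300 bp, 14 had over 300 and up to 1000 bp and 78 exceeded 1000 bp. The depleted share was 3.12% of the abundant models over 100 and up to 300 bp, 1.96% of those up to 1000 bp and 1.91% of those over 1000 bp, beside 1.96% over all abundant models. The median span was 3378.5 bp in the depleted models and 3039 bp in the other abundant models of Mo17. The difference in composition between the lines goes with different annotations, and the 2 cannot be told apart here.

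**Figure D1:**
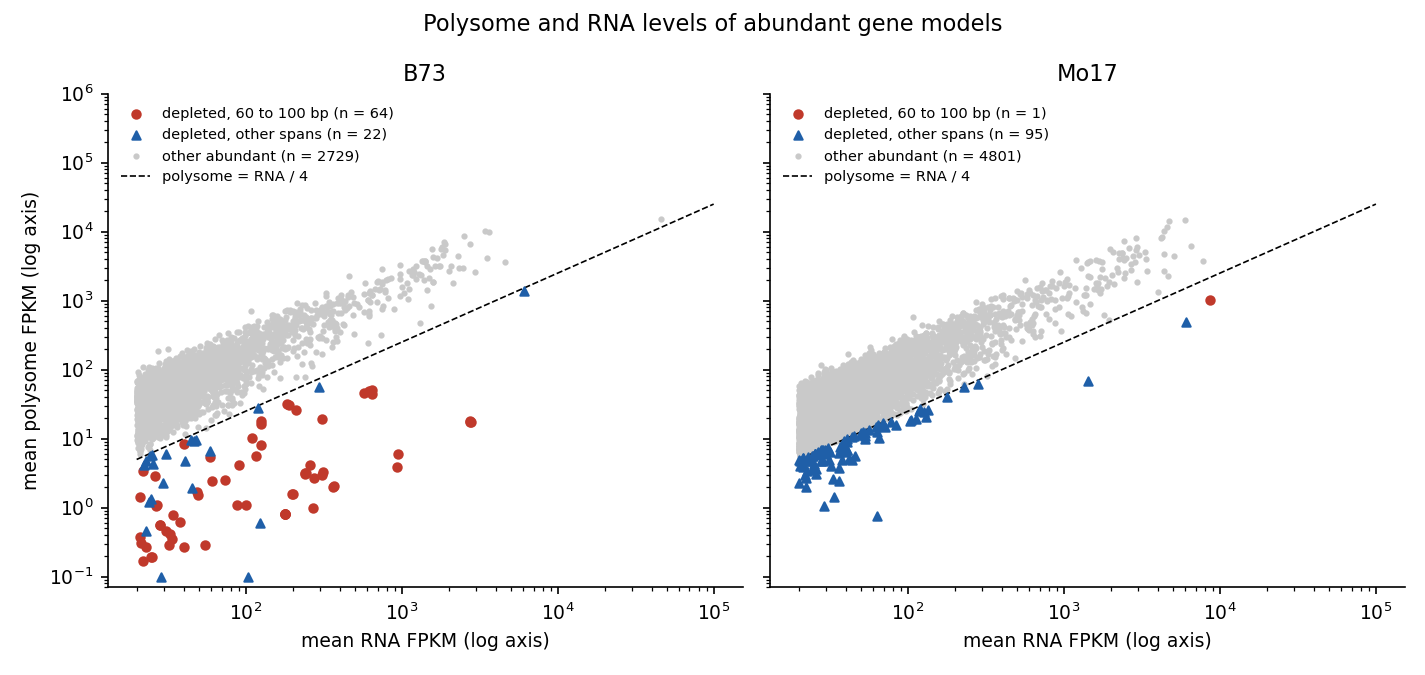
Mean polysome FPKM (vertical, log axis) against mean RNA FPKM (horizontal, log axis) of every abundant gene model in B73 (left) and Mo17 (right), each point 1 model and the dashed line the 25% limit. Means under 0.1 FPKM are drawn at 0.1. In B73 the 64 depleted models of 60 to 100 bp spread far under the line, and in Mo17 most of the 96 depleted models lie close under it.

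The depth of depletion differed between these groups. The 64 models of tRNA size in B73 had a median polysome level of 2.25 FPKM, from 0.171 to 50.6, and a median RNA level of 120.6 FPKM, from 20.98 to 2778. Their polysome level was a median of 1.47% of their RNA level, and 47 of the 64 lay under 5%. This percent, called the polysome share below, compares FPKM of separate libraries and is not the fraction of an RNA found on polysomes. The 22 longer depleted models of B73 had a median of 17.7%, with 5 under 5%. The 96 depleted models of Mo17 had a median of 20.4%, with 4 under 5% and 52 at 20% or more. Over all abundant models the median was 160.2% in B73 and 90.5% in Mo17, so the same limit of 25% lies farther from the middle of the distribution in B73. The feature lists differ between the lines. B73 gene models held 452783 of 1147928 and 438866 of 1157671 FPKM in the RNA libraries. On polysomes they held 673882 of 916681 and 693258 of 934245 FPKM. In Mo17 all FPKM belonged to gene models, so the medians of the lines are not like for like. The depleted models together held 0.339% and 0.26% of the gene-model FPKM in the B73 polysome libraries, against 5.97% and 5.97% in the RNA libraries. In Mo17 they held 0.321% and 0.296% in the polysome libraries, against 3.15% and 3.07% in the RNA libraries.

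**Figure D2:**
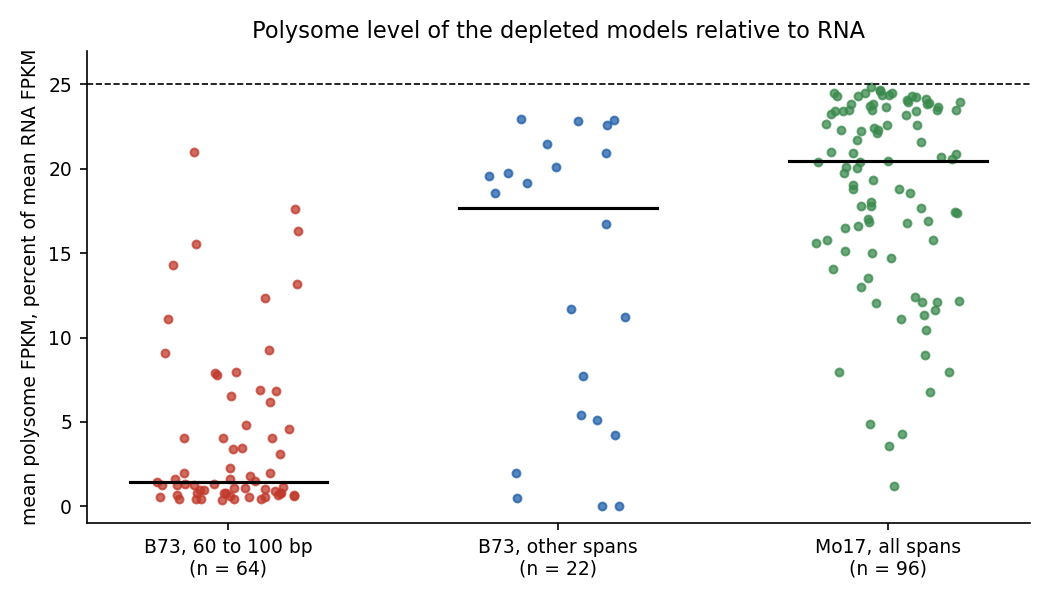
Mean polysome FPKM as a percent of mean RNA FPKM (vertical) for each depleted model, in B73 models of 60 to 100 bp, B73 models of other spans and all Mo17 models. Black bars are medians (1.47%, 17.7% and 20.4%), and the dashed line is the 25% limit that chose the models.

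Models lay close to the limits on both sides, and at the ratio limit closer in Mo17 than in B73. Just inside the ratio limit lay Zm00001d002275 at 22.9% and Zm00001d010814 at 22.9% in B73, and Zm00014a_019559 at 24.8% and Zm00014a_031272 at 24.7% in Mo17. Just outside it lay Zm00001d013809 at 25.3% and Zm00001d014446 at 27.9% in B73, and Zm00014a_003034 and Zm00014a_006205 at 25.0% in Mo17. At the level limit, Zm00001d019608 (20.98 FPKM of RNA) and Zm00001d031497 (21.1) were just inside in B73, and Zm00001d002038 (19.7) and Zm00001d046081 (18.8) just outside. In Mo17, Zm00014a_014439 (20.1) and Zm00014a_033428 (20.2) were inside, and Zm00014a_035166 (19.7) and Zm00014a_026548 (19.5) outside.

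The same measure was then looked at in libraries that had not been used to choose the models. Of 83 B73 models chosen on polysome 1 and RNA 1 alone, 76 met both limits again in polysome 2 and RNA 2 (91.6%), among them 62 of 65 of tRNA size and 14 of 18 of other spans. The median polysome level in the libraries held out was 2.04% of the RNA level. Of 91 models chosen on the second pair, 76 met the limits in the first (83.5%), with 62 of 62 of tRNA size and 14 of 29 of other spans. In Mo17, 56 of the models chosen on the first pair met the limits again in the second (55.4%), and 56 of the 119 chosen on the second met them in the first (47.1%), with medians of 22.7% and 25.7% in the libraries held out. In each of these choices the share that met the limits again was higher for the short B73 models than for the longer models of either line. This difference was not tested. The short models lay farther from both limits, at a median of 1.47% and 120.6 FPKM of RNA. Longer models had medians of 17.7% and 36.0 FPKM in B73, and 20.5% and 36.3 FPKM in Mo17. Moreover, 37 of the 64 short models belong to near-equal sets, given below, and are not independent.

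The most abundant tRNA-size models of B73 formed a trio of 72 bp on 3 chromosomes. Zm00001d044070 (chromosome 3, 218297061 to 218297132, minus strand; B73 coordinates are those of B73 RefGen_v4) had 17.9 and 17.2 FPKM in the polysome libraries, against 2893 and 2663 FPKM in the RNA libraries. Zm00001d004752 (chromosome 2, 136250230 to 136250301, plus strand) had 18.6 and 17.7 FPKM on polysomes, against 2841 and 2616 FPKM of RNA. Zm00001d017105 (chromosome 5, 185510188 to 185510259, plus strand) had 17.9 and 17.4 FPKM on polysomes, against 2840 and 2615 FPKM of RNA. In each of the 3 both polysome libraries were below both RNA libraries by more than 100-fold, and the mean RNA level was 158, 151 and 154 times the mean polysome level, in that order.

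A pair of 74 bp models followed. Zm00001d004406 (chromosome 2, 110112288 to 110112361, minus strand) had 6.34 and 5.68 FPKM on polysomes, against 1019 and 877 FPKM of RNA. Zm00001d028301 (chromosome 1, 29685314 to 29685387, minus strand) had 3.66 and 4.13 FPKM on polysomes, against 1006 and 868 FPKM of RNA. The next models by RNA level had a larger polysome share. Zm00001d002291 (chromosome 2, 9670599 to 9670672) had 60.1 and 41.1 FPKM on polysomes, against 649 and 650 FPKM of RNA, and Zm00001d025030 (chromosome 10, 100539938 to 100540011) had 51.3 and 36.7 FPKM on polysomes, against 645 and 646 FPKM of RNA. For both, the polysome libraries differed more from each other than the RNA libraries did, and the groups did not overlap.

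**Figure D3:**
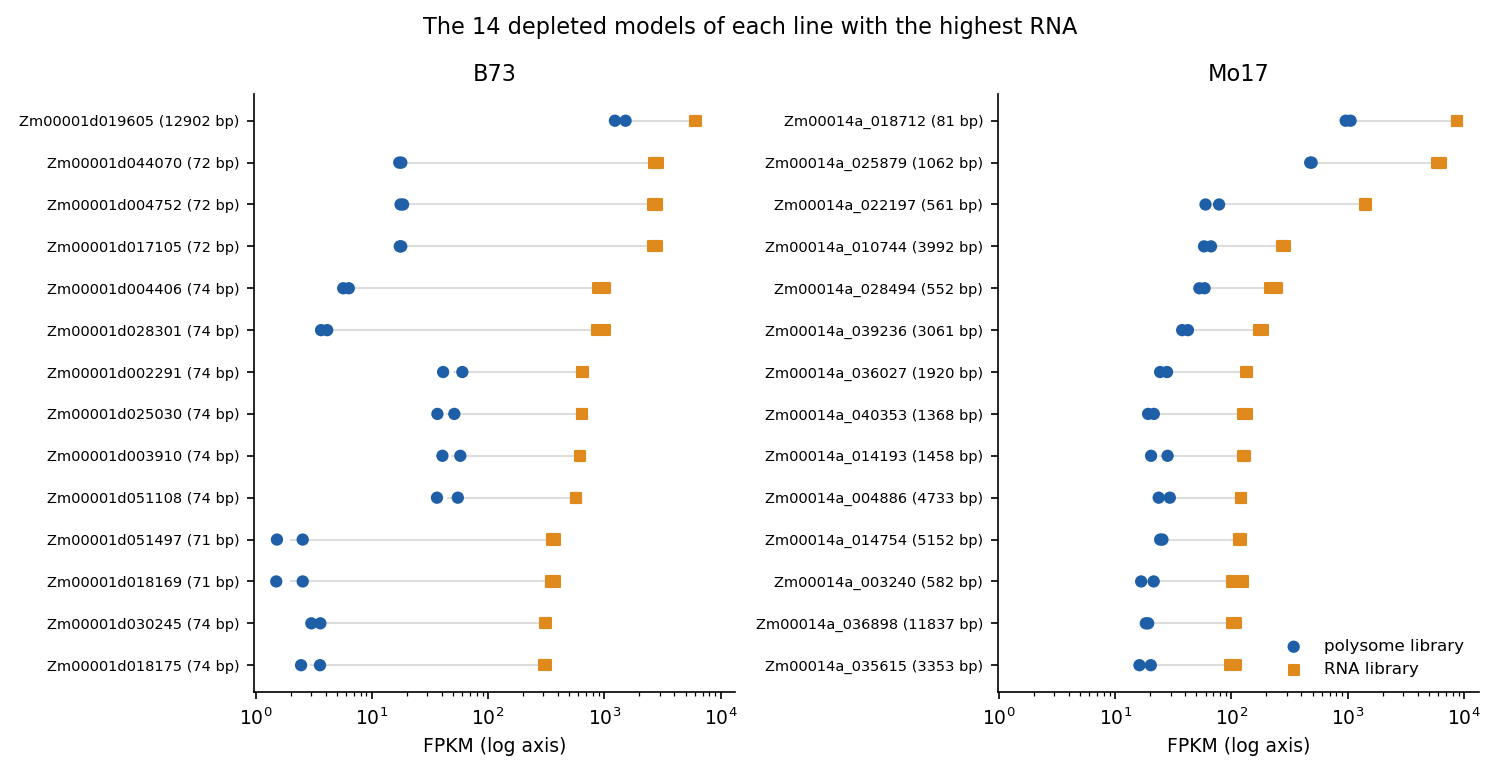
FPKM per library (horizontal, log axis) of the 14 depleted models with the highest mean RNA in B73 (left) and Mo17 (right), with blue circles for the 2 polysome libraries, orange squares for the 2 RNA libraries and the span in brackets. In each of the 28 models both polysome libraries lie left of both RNA libraries, and the choice on these libraries largely sets this. Zm00001d044070 has 17.9 and 17.2 FPKM on polysomes, against 2893 and 2663 FPKM of RNA.

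Among the 5 lowest shares above 0 in B73, 4 belonged to models of tRNA size. Zm00001d009976 (73 bp, chromosome 8) was listed at 0 and 1.96 FPKM on polysomes, against 289 and 252 FPKM of RNA. Zm00001d028301, given above, had 0.416%. Zm00001d046858 and Zm00001d021381, both of 73 bp and on chromosomes 9 and 7, each had 0.773 and 0.859 FPKM on polysomes, against 188 and 169 FPKM of RNA (0.457%). Only 1 depleted model in B73, the 1933 bp Zm00001d046001, was listed at 0 in both polysome libraries; it had 105.5 and 100.9 FPKM of RNA.

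Many tRNA-size models repeated each other's values. In 15 sets holding 37 of the 64 models, each model had the same span as at least 1 other and an RNA level within 5% of it in both libraries. In 14 of the 15 all models lay within 5% of each other, and in a chained set of 3 the highest and lowest were 8.48% and 7.02% apart in the RNA libraries. Counting each set once left 42 tRNA-size entries and 64 depleted models in all. The largest set was Zm00001d013930, Zm00001d019295, Zm00001d021381 and Zm00001d046858, each 73 bp long and all with 0.773 and 0.859 FPKM on polysomes. The counting of reads that align to several copies is not stated in the sources used here, and the sequences of the models were not compared, so these levels are uncertain for each model and the members of a set are not independent of each other.

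Near-equal RNA did not always come with near-equal polysome levels. Of 3 models of 74 bp, Zm00001d004264 had 18.5 and 19.6 FPKM on polysomes, Zm00001d030245 had 3.02 and 3.61 FPKM and Zm00001d018175 had 2.46 and 3.58 FPKM, at RNA levels of 305 to 317 FPKM in all 3. The chained set, also of 74 bp, was split in a like way on polysomes. There Zm00001d029951 and Zm00001d022029 had 33.0 and 31.5 FPKM and 33.4 and 28.8 FPKM on polysomes, against 187 and 179 FPKM and 196 and 184 FPKM of RNA, and Zm00001d008895 had 1.12 and 2.0 FPKM on polysomes, against 205 and 193 FPKM of RNA. Both sets were picked after their values were seen.

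Of the 71 abundant tRNA-size models of B73, 7 were not depleted, with polysome levels from 29.1% to 219% of RNA. Zm00001d025029 (73 bp, chromosome 10, 100533599 to 100533671) had 160 and 131 FPKM on polysomes, against 99.2 and 89.99 FPKM of RNA. It lies in the same stretch of chromosome 10 as the depleted Zm00001d025030 described above. Zm00001d018164 (74 bp, chromosome 5, 215771943 to 215772016) had 88.0 and 67.6 FPKM on polysomes, against 250.1 and 228.7 FPKM of RNA. Zm00001d018168 (88 bp, chromosome 5, 215847604 to 215847691) had 118.9 and 121.9 FPKM on polysomes, against 224.1 and 232.2 FPKM of RNA.

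Zm00001d018168 borders the largest group of depleted models. Models less than 100 kb apart were taken as a cluster, and 21 of the 86 depleted models of B73 (24.4%) fell into 8 clusters, 20 of the 21 being of tRNA size. The other abundant models are far denser along the chromosomes, and 36.5% of them lay within the same distance of another one. The B73 shares are therefore not like for like. In the largest cluster, 5 models lay within 4598 bp of chromosome 5, from 215848444 to 215853041. They were Zm00001d018169 (71 bp), Zm00001d018170 (74 bp), Zm00001d018173 (73 bp), Zm00001d018174 (84 bp) and Zm00001d018175 (74 bp). Zm00001d018169 had 1.51 and 2.55 FPKM on polysomes, against 352 and 373 FPKM of RNA. Zm00001d018173 had 1.98 and 3.48 FPKM on polysomes, against 291 and 259 FPKM of RNA. Within 100 kb of this cluster the tables list 13 models of tRNA size, 8 of them abundant, so the depleted 5 stand beside 3 abundant ones that were not depleted (Zm00001d018164, Zm00001d018165 and Zm00001d018168).

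The second cluster, of 4 models, spanned 24875 bp of chromosome 7 from 46255868 to 46280742. It held Zm00001d019603 (81 bp), Zm00001d019604, Zm00001d019608 (80 bp) and the 12902 bp Zm00001d019605, and Zm00001d019608 lies inside the span of Zm00001d019605 on the opposite strand. The other 6 clusters were pairs: Zm00001d029951 and Zm00001d029952 on chromosome 1, Zm00001d004263 and Zm00001d004264 on chromosome 2, Zm00001d008895 with Zm00001d008897, Zm00001d009976 with Zm00001d009977 and Zm00001d011381 with Zm00001d011385 on chromosome 8, and Zm00001d046845 with Zm00001d046847 on chromosome 9. The pair of Zm00001d009976 (73 bp) and Zm00001d009977 (84 bp) repeated the spans and RNA levels of Zm00001d018173 and Zm00001d018174 in the chromosome 5 cluster. By chromosome, the 64 tRNA-size models numbered 16 on chromosome 1, 11 on chromosome 5, 9 on chromosome 2 and 0 on chromosome 6. In the same order, these chromosomes held 20.9%, 16.3%, 11.6% and 1.16% of all depleted models of B73. They held 17.3%, 12.6%, 11.4% and 8.98% of its other abundant models. Near-equal models are counted one by one here, and the differences were not tested. In Mo17 there was 1 cluster, of Zm00014a_033837 and Zm00014a_033835 on chromosome 10, holding 2.08% of the depleted models, beside 50.6% of the other abundant models. The others number 4801, against 96 depleted models, and a larger set is denser along the chromosomes. The Mo17 shares are therefore not like for like.

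The longer depleted models of B73 were led by Zm00001d019605 (chromosome 7, 46267841 to 46280742, minus strand). It had 1525 and 1235 FPKM on polysomes, against 6183 and 6039 FPKM of RNA, or 22.6%, close to the limit. Zm00001d014365 (169 bp, chromosome 5) had 0.409 and 0.792 FPKM on polysomes, against 117.8 and 128.4 FPKM of RNA. Zm00001d013367 (3292 bp, chromosome 5) had 29.4 and 25.6 FPKM on polysomes, against 113 and 127 FPKM of RNA. Zm00001d034153 (1300 bp, chromosome 1) had 8.66 and 4.600 FPKM on polysomes, against 59.8 and 58.2 FPKM of RNA. Zm00001d025544 (588 bp) and Zm00001d040880 (1527 bp) had polysome shares of 19.7% and 20.1%. Of these, Zm00001d014365 had the lowest polysome share, 0.488%.

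A few longer models rested on a single library. Zm00001d019137 (2832 bp, chromosome 7) was listed at 113.8 and 0 FPKM on polysomes, against 0 and 594.3 FPKM of RNA, so its groups overlapped. Zm00001d001088 (1247 bp, chromosome 7) had 0.00713 and 0 FPKM on polysomes, against 0 and 57.0 FPKM of RNA, the lowest share above 0 in B73 (0.0125%), and its groups overlapped as well. Its whole span lies in Zm00001d018981 on the same strand, which had 198.3 and 200.6 FPKM on polysomes, against 71.6 and 21.9 FPKM of RNA. Zm00001d024980 (1266 bp, chromosome 10) had 2.46 and 0 FPKM on polysomes, against 45.4 and 2.66 FPKM of RNA, so it passed the level limit through the first RNA library. In all, 8 depleted models of B73 and 6 of Mo17 were under 20 FPKM in 1 of the 2 RNA libraries.

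Another longer model overlaps one with the opposite pattern. Zm00001d045577 (2440 bp, chromosome 9) had 1.26 and 1.44 FPKM on polysomes, against 24.5 and 25.1 FPKM of RNA, and it contains Zm00001d045578 on the same strand, which had 107.4 and 80.4 FPKM on polysomes, against 0.566 and 0.995 FPKM of RNA. Such overlapping models may share reads, and the values of Zm00001d001088 and Zm00001d045577 are uncertain. Across all depleted models the higher polysome library was below the lower RNA library in 84 of 86 in B73 and 96 of 96 in Mo17. The models were chosen on the means of these same libraries, so these counts follow largely from the choice. The same count was not made over the other abundant models, so no share stands beside these counts for comparison.

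In Mo17 the depleted models were led by 3 very abundant ones. Zm00014a_018712 (81 bp, chromosome 2, 104795003 to 104795083, minus strand, as the Mo17 files list it) had 1059 and 960 FPKM on polysomes, against 8684 and 8672 FPKM of RNA. Zm00014a_025879 (1062 bp, chromosome 9, 39641980 to 39643041) had 489 and 475 FPKM on polysomes, against 6304 and 5830 FPKM of RNA. Zm00014a_022197 (561 bp, chromosome 5, 104661336 to 104661896) had 78.2 and 59.8 FPKM on polysomes, against 1405 and 1435 FPKM of RNA. The next depleted model of Mo17 had a mean of 280.1 FPKM of RNA. It was Zm00014a_010744, with polysome levels of 66.7 and 58.0 FPKM, against RNA levels of 274 and 286 FPKM. By RNA level it was followed by Zm00014a_028494 (24.3%), Zm00014a_039236 (22.3%), Zm00014a_036027 (19.3%), Zm00014a_040353 (15.6%) and Zm00014a_014193 (19.0%).

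Apart from that of Zm00014a_022197, the lowest polysome shares in Mo17 belonged to moderately abundant models. Zm00014a_038392 (1383 bp, chromosome 5) had 1.08 and 0.417 FPKM on polysomes, against 60.2 and 66.3 FPKM of RNA, or 1.18%. Zm00014a_001333 (11008 bp, chromosome 6) had 0.760 and 1.33 FPKM on polysomes, against 30.6 and 27.7 FPKM of RNA, or 3.59%. Zm00014a_007953 had 2.87 and 0 FPKM on polysomes, against 16.2 and 50.6 FPKM of RNA, so it passed the 20 FPKM limit through the second RNA library alone. Zm00014a_022197 and Zm00014a_033837 followed at 4.86% and 6.78%.

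The short models had no m6A peaks. A model was counted as methylated when a peak summit lay in its span, and in no other span, in both m6A replicates; peaks were called by the authors with MACS2. Of the 64 depleted tRNA-size models of B73, 0 had a peak in either replicate, and 0 of the 7 other abundant models of that size had one. In B73 no abundant model up to 300 bp had a counted peak, so the short models allow no comparison of m6A. Models over 300 and up to 1000 bp were seldom methylated in either group, with 0 of 5 depleted and 17 of 444 other abundant models in B73, and 0 of 14 and 16 of 700 in Mo17.

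Over 1000 bp, m6A was less frequent in the depleted models. In B73, 2 of 16 depleted models were methylated (12.5%), against 1284 of 2225 other abundant models (57.7%). In Mo17 the counts were 22 of 78 (28.2%) and 2214 of 4007 (55.3%). Counting any overlap of a peak with the span in both replicates, B73 had 4 of 16 depleted models (25%), against 59.6% of the others. The same count in Mo17 gave 29.5% and 57.3%. Replicate by replicate, 12.5% and 18.8% of the depleted models and 59.6% and 61.6% of the other models had a peak in B73. In Mo17 the shares were 33.3% and 28.2% in the depleted models and 58.1% and 57.5% in the others. Both replicates score the same models, so their spread covers the separate m6A libraries with their peak calling and not the choice of models. Over 12 other ways of choosing the models, the methylated share over 1000 bp ran from 0% to 37.3% in the depleted and from 47% to 62% in the other models of B73. The highest of these depleted shares was 22 of 59, at equal library sums, and the share was 30% (9 of 30) by the median of log ratios and 25% (5 of 20) without RNA library 1. In Mo17 the shares ran from 16% to 40.1% in the depleted and from 48.2% to 57.1% in the other models. The depleted share was the lower one in each of these choices. The choices overlap in their models and are not independent of each other, and the gap itself was not tested.

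Span and RNA level both go with m6A, so the shares were also set side by side within bins. In Mo17, methylated models made up 4.35% of 23 depleted and 29.5% of 1576 other models over 1000 and up to 3000 bp, 17.1% of 35 and 70% of 2134 over 3000 and up to 10000 bp, and 75% of 20 and 86.2% of 297 over 10000 bp. By RNA level, they made up 41.2% of the depleted and 62.4% of the other Mo17 models over 1000 bp at 20 to 30 FPKM, 20% and 59.4% at 30 to 60 FPKM, and 15.8% and 41.3% from 60 FPKM. The share was lower in the depleted models in each of these 6 bins, and by least in the longest models. In B73 the span bins held 10, 3 and 3 depleted models, of which 0, 0 and 2 were methylated. Of the other abundant B73 models in these bins, 41.1%, 71.4% and 88.5% were methylated.

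**Figure D4:**
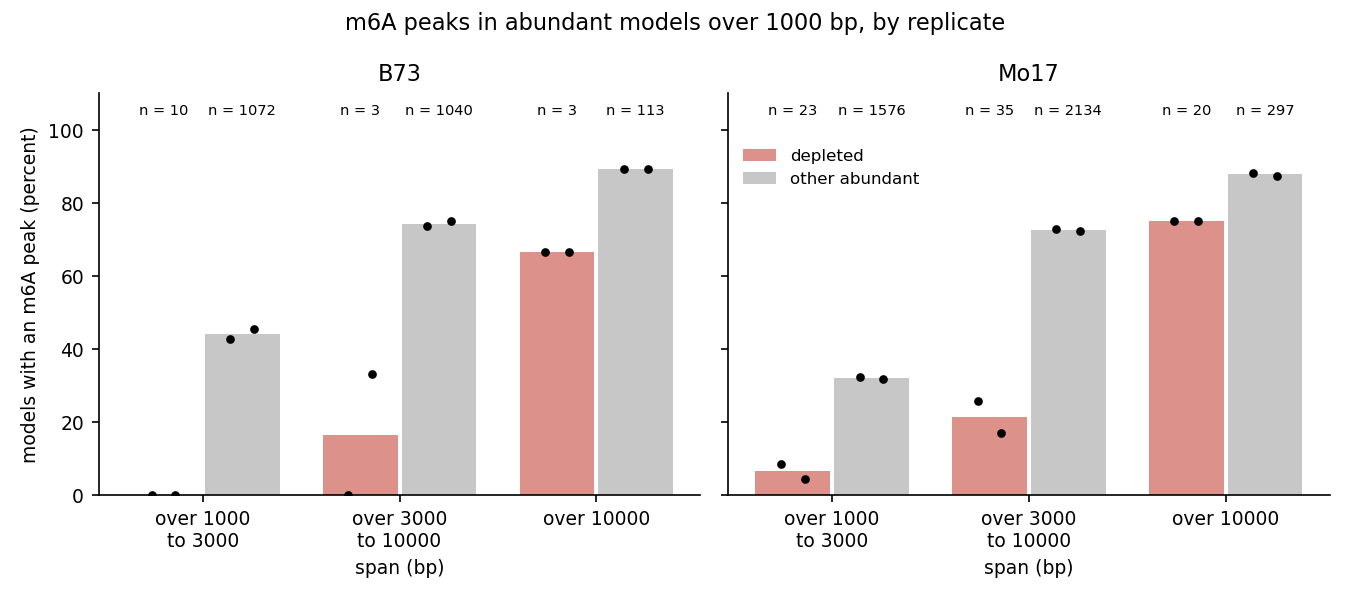
Percent of abundant models over 1000 bp with an m6A peak (vertical) by span in bp (horizontal), in B73 (left) and Mo17 (right), red for depleted and grey for other abundant models. Bars are the mean of the 2 m6A replicates, black points the replicates and n the number of models; in Mo17 models over 3000 and up to 10000 bp the replicates lie at 25.7% and 17.1% in depleted models and at 73% and 72.3% in the others.

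Both methylated models of B73 are long. Zm00001d023792 (45806 bp, chromosome 10, 20844614 to 20890419, plus strand) had 11 and 12 peak summits in the m6A replicates, with the authors' highest fold enrichments at 14.4 and 11.7; its levels were 4.41 and 3.87 FPKM on polysomes, against 19.2 and 25.3 FPKM of RNA. Zm00001d002275 (13651 bp, chromosome 2, 9302717 to 9316367, plus strand) had 1 summit in each replicate, 173 and 177 bp from its 3′ end, with folds of 3.05 and 3.11. Its levels were 5.79 and 5.38 FPKM on polysomes, against 26.1 and 22.6 FPKM of RNA. In Mo17 the methylated depleted models with the highest RNA were Zm00014a_014754, Zm00014a_036898, Zm00014a_025048, Zm00014a_029655, Zm00014a_032152, Zm00014a_030375, Zm00014a_033835 and Zm00014a_028752. Zm00014a_014754 (5152 bp, chromosome 5) had 24.3 and 25.5 FPKM on polysomes, against 120.1 and 116.8 FPKM of RNA. Zm00014a_036898 (11837 bp, chromosome 10) had 18.3 and 19.2 FPKM on polysomes, against 101.7 and 108.9 FPKM of RNA. A summit in the last 10% of the span in both replicates was present in 14 of the 22 methylated depleted models of Mo17 (63.6%) and in 73.8% of the other methylated abundant models.

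Part of the short B73 models are annotated a second time as ENSRNA features. On the same strand, 16 of the 86 depleted models (18.6%) overlapped an ENSRNA feature by at least 1 bp, against 26 of 2729 other abundant models (0.953%). Of the 16, 14 were of tRNA size, or 21.9% of the depleted tRNA-size models, near the 23.8% (535 of 2249) over all B73 models of that size. Among the abundant models of this size that were not depleted, 1 of 7 had such an overlap.

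In each of these 14 the ENSRNA feature had exactly the same start, end and strand as the model, yet the FPKM tables gave the pair different values. Of the 14 features, 8 were listed at 0 in all 4 libraries, and the highest value of any was 2.54 FPKM. The longest overlapping model was Zm00001d019605, with the 72 bp ENSRNA049447050 inside it. Next by RNA level were Zm00001d018169 with ENSRNA049446214, Zm00001d022029 with ENSRNA049447361, Zm00001d029951 with ENSRNA049438083, Zm00001d046858 with ENSRNA049450759 and Zm00001d021381 with ENSRNA049447665. On the opposite strand, Zm00001d014365 overlapped ENSRNA049461783, which had 0.470 and 0.911 FPKM on polysomes, against 135 and 148 FPKM of RNA, close to the levels of the model itself. In all 4 libraries the levels of this model and this feature stand in inverse proportion to their spans of 169 and 147 bp. The same reads thus appear to be counted for both, although they lie on opposite strands. The values of the pair are not separate measures, and whether counting used the strand is not stated.

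ENSRNA features as a class were depleted far more often than gene models. Of 268 ENSRNA features with at least 20 FPKM of RNA, 171 met the same ratio limit (63.8%). The share was 79.4% of 63 features of 60 to 100 bp, with a median polysome level of 5.22% of RNA, and 59% of 205 features of other spans. In the gene models of 60 to 100 bp it was 90.1% of 71, as given above.

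Scaling of the libraries changed how many models were depleted. With libraries brought to an equal sum over gene models, 138 of 3567 abundant models of B73 and 211 of 5339 of Mo17 were depleted. With scaling by the median of log ratios, 103 of 3226 and 37 of 4290 were. As deposited, the counts were 86 of 2815 and 96 of 4897. The median log2 ratio of polysome to RNA over expressed models was 0.42 in B73 and −0.37 in Mo17 as deposited, and −0.15 and −0.61 at equal sums. The tRNA-size models of B73 numbered 72 and 67 under these scalings, against 64 as deposited.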

How the data were processed

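Values were used as deposited. Per the submitters' processing notes, reads were handled with Trimmomatic 0.35, HISAT2 and MACS2 on B73 RefGen_v4. The build for Mo17, the program behind the FPKM, its length term, its strand setting and its counting of reads that align repeatedly are not stated in the sources used here. The authors deposited FPKM per gene in 1 table per library. They deposited m6A peaks as 1 list per sample, with a fold enrichment (a ratio over a control not named here), −log10 p and −log10 q, and a score. FPKM carry no depth, so no counting interval is given.

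Groups came from the labels. Models whose span differed between tables were left out (1 in B73, 2 in Mo17). Means, shares, overlaps and clusters were computed with Python 3.11.15, pandas 2.3.3 and numpy 2.4.6, on 1-based coordinates, and tested on simulated data. No test was run, since the compared levels chose the models. No identifier of either line matched the reference table of gene names. Models are named by rank of RNA level, polysome share, m6A, cluster, ENSRNA overlap or distance to a limit; the non-depleted tRNA-size models, the near-equal sets, and the models resting on 1 library or on overlapping models were named after their values were seen. The models and lists were chosen with earlier results of these data known.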

Additional observations from a re-analysis of the deposited data

How the results depend on the processing

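Over 136 alternatives to 11 counts, 91 stayed within 1.5 times the reported count and 45 moved further; the cause was not tested. In B73, depleted models numbered 55 of 1314 abundant models with an RNA minimum of 40 FPKM and 138 of 3567 at equal sums. Those in clusters numbered 32 with a minimum of 10 FPKM, those overlapping ENSRNA 8 with 40 FPKM, and those of tRNA size 42 when near-equal sets, an alternative chosen after seeing the data, counted once. Methylated depleted models of B73 numbered 8 and 0 with RNA minimums of 10 and 40 FPKM, 7 and 0 with polysome limits of 1/3 and 1/8, 0 when each pairing of single libraries had to meet the rule, 22 at equal sums, 9 by the median of log ratios, 1 with a pseudocount of 1, 4 by any overlap of a peak, and 1 each with peaks of at least 5-fold or a −log10 q of at least 10.

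In Mo17, depleted models numbered 196 of 8790 and 40 of 2333 abundant models with RNA minimums of 10 and 40 FPKM. They numbered 272 and 17 of 4897 with limits of 1/3 and 1/8, and 52 of 4897 in each pairing. The counts were 211 of 5339 at equal sums, 37 of 4290 by the median of log ratios and 63 of 4897 with a pseudocount of 1. The number of abundant models thus changed with the RNA minimum and the scaling as well. The methylated ones numbered 49, 6, 97, 2, 11, 69, 4 and 11 in the same order, 11 with peaks of at least 5-fold and 14 with peaks whose −log10 q was 10 or more. Those in clusters numbered 12 and 0 with RNA minimums of 10 and 40 FPKM, 16 and 0 with limits of 1/3 and 1/8, 11 at equal sums, and 0 and 6 with gaps under 10 kb and 1 Mb.

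Leaving out 1 library at a time gave 82 to 90 depleted models in B73 (62 to 65 of tRNA size, 20 to 21 in clusters, 15 to 16 overlapping ENSRNA, 1 to 5 methylated) and 89 to 123 in Mo17 (1 of tRNA size, 2 to 4 in clusters, 22 to 26 methylated). The methylated models of B73 numbered 5 without RNA library 1, 1 without RNA library 2 and 4 without polysome library 1, and the clustered models of Mo17 numbered 4 without polysome library 1. No paired analysis was possible because the counts come from no fitted test that could take a replicate block. Replicates chosen and held out by number gave 76 models met again in B73 and 56 in Mo17, and crossed numbers gave 75 and 60. Depth is unknown, so low polysome levels carry no error beyond the 2 libraries.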
